A study of Mus musculus with 8 samples.

Results

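Messenger RNA levels of 10 genes that handle quinones, heme, epoxides, aldehydes and glucuronides or pump their products out of the cell were compared between mice with and without Atg3 in adipocytes, in the fat pad along the epididymis. The genes were taken by name (Nqo1, Hmox1, Blvrb, Ephx1, Ugdh, Ugt1a6a, Aox1, Abcc1, Abcc3 and Abcc4), and all 10 were found among the 37417 genes of the deposited table. Fat came from 4 wild-type and 4 knockout male mice of the C57Bl/6 strain on chow. The genotype of the knockout mice is given as Adiponectin-Cre ERT2-Atg3 flox/flox, a Cre that is active in adipocytes after tamoxifen, and mice of both genotypes received tamoxifen. The labels give neither the age of the mice nor whether the wild-type mice carried Cre or the floxed allele. The deletion was meant for adipocytes only, whereas the RNA came from whole fat, which also holds macrophages, fibroblasts, endothelium and other cells.

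NRF2 is a transcription factor that is kept low by KEAP1, and the autophagy receptor p62 can bind KEAP1 and release NRF2 when autophagy is blocked. Its targets include enzymes that reduce quinones, break down heme and open epoxides, enzymes that attach glucuronate to foreign or waste molecules, and membrane pumps that export the conjugates. Many of these genes are also driven by other factors, such as the aryl hydrocarbon receptor, and in fat several are made by macrophages as well as by adipocytes.

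Sequence upstream of the start site was matched in RefSeq (build GRCm38.p6) for 7 of the 10 genes, all but Hmox1, Abcc1 and Abcc3. The antioxidant response element, the DNA site of NRF2, was searched for as TGACNNNGC on both strands in the 250 bases before each start. It was found in 3 of 9 windows of these genes, which belong to 2 genes, Ugdh and Abcc4, and in 10.2% of 32851 windows of all genes. The 4 windows below set the pair of genes with the largest differences between genotypes, Ephx1 and Aox1, beside the pair with the smallest, Ugdh and Abcc4. Capitals mark matches to TGACNNNGC on either strand. The windows are chr1:181017570-181017819 on the minus strand for Ephx1, chr1:58029719-58029968 on the plus strand for Aox1, chr5:65435843-65436092 on the minus strand for Ugdh and chr14:118706220-118706469 on the minus strand for Abcc4.
Ephx1: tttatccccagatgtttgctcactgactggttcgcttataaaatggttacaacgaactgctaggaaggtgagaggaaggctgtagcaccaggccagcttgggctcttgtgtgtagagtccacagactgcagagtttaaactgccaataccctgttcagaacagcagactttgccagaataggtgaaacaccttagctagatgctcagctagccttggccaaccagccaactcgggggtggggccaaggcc
Aox1: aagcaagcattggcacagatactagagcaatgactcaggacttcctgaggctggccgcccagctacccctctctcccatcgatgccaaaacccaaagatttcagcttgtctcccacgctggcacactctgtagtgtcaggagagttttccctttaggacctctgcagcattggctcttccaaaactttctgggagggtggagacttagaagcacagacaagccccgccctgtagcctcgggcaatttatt
Ugdh: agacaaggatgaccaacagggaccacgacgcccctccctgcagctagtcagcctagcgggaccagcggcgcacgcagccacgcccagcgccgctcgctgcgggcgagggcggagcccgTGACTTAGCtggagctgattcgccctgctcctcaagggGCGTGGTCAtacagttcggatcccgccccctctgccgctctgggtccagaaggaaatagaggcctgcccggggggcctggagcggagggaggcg
Abcc4: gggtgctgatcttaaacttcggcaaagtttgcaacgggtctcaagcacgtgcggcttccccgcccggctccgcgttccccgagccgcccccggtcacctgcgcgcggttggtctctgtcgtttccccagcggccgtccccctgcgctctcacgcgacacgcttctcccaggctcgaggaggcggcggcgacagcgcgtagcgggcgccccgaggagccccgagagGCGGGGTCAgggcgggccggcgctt
The Ugdh window held a match at 132 to 124 bases before the start (TGACTTAGC) and another on the opposite strand at 94 to 86 bases (TGACCACGC). The Abcc4 window held a match on the opposite strand at 25 to 17 bases before the start (TGACCCCGC). Neither the Ephx1 nor the Aox1 window held one. The core of the aryl hydrocarbon receptor's site, GCGTG on either strand, was present in 4 of the 9 windows and in 28.2% of all windows. The 4 windows belong to Aox1, Ugdh, Blvrb and Abcc4. The match of GCGTG in Ugdh at 94 to 90 bases lies inside the second TGACNNNGC match. The RefSeq start of Ephx1 lies 3335 bases inside the gene as the deposited table bounds it. Of the windows not shown, that of Ugt1a6a and inner ones of Blvrb and Abcc4 have starts 31557, 4440 and 29288 bases inside. The inner Abcc4 window is among those with a TGACNNNGC match (TGACTCTGC, 23 to 15 bases before its start). Matches describe these letters in these windows and say nothing of binding. Sites beyond the 250 bases were not searched. The 4 windows were picked by the size of the difference between genotypes, and a link between matches and that difference was not tested.

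Atg3 averaged 50.2 ± 4.34 CPM in wild-type libraries and 30.3 ± 1.84 CPM in those labelled knockout (SD, n = 4), and each library lay on the side of its label. CPM are read counts relative to the library total, scaled between libraries (TMM). Library totals ran from 10986375 to 21688464 counts. The 10 adipocyte markers, which include adiponectin and perilipin 1, were present in every library and summed to 36469 to 47531 CPM in wild-type and 32633 to 40672 CPM in knockout fat. Knockout libraries 2 and 3 stood apart: 21 duct epithelium markers summed to 585 and 604 CPM there, to 52.8 and 58.7 CPM in knockout libraries 1 and 4 and to 13.5 to 34.3 CPM in wild-type libraries, where Elf3 and Ovol2 were at 0. Knockout library 1 held 74.4 CPM of 7 prostate and seminal vesicle genes, against at most 3.36 CPM elsewhere, and the sum of 9 liver genes was 56.5 and 92.4 CPM in knockout libraries 1 and 4 and between 8.69 and 26.4 CPM elsewhere. Mitochondrial transcripts took 5.03 to 6.08% of counts in knockout and 3.05 to 4.93% in wild-type libraries. Wild-type library 1 held the most of 7 T cell markers, 169 CPM in sum. The other wild-type libraries held 35.7 to 69.0 CPM of them and knockout libraries 42.1 to 102 CPM. The part of these sums and shares in the results below was not tested beyond fits that left libraries out. Those fits left out 1 library at a time, and knockout libraries 2 and 3 together. In whole tissue, fewer cells of a type and less RNA per cell cannot be told apart.

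Among the 10 genes, Ephx1 rose in knockout fat and none fell with edgeR's quasi-likelihood test at an adjusted p of 0.05 over 14800 genes; 0.405% of all genes tested passed in either direction and 0.277% passed as higher. All 10 genes passed the filter on low counts. They were chosen with earlier results of these data known, so the shares of all genes given beside them make no independent test. The log2 fold change (knockout against wild-type) was above 0 for 9 of the 10, with a median of 0.32, against 47.6% of all tested genes and a median of -0.01. Knockout libraries lay wholly above wild-type libraries for 4 of the 10, Ephx1, Aox1, Abcc3 and Ugt1a6a, which 4.32% of all genes did. An unadjusted p under 0.05 was reached by 7 of the 10, against 16.2% of all genes. That count was 3 without wild-type library 3, 4 without wild-type library 2 and 4 without knockout library 4, beside 16.3%, 12.5% and 16.8% of all genes. Without knockout libraries 2 and 3 the median of the 10 genes was 0.39 (all genes, -0.01), 9 were above 0, and 0 passed with edgeR, with 5 of them at an unadjusted p under 0.05, while 3 genes (0.0197%) passed in the whole table and 8.52% had an unadjusted p under 0.05. DESeq2 called 3 of the 10 (Ephx1, Aox1 and Abcc3), against 5.61% of all genes, and limma-voom called 0, against 0.304%. Marker sums of duct epithelium and mitochondrial shares, given above, were higher in all 4 knockout libraries than in any wild-type library. The sum of 7 endothelial markers was lower in all 4, at 1378 to 1561 CPM against 1612 to 1895 CPM. The 10 adipocyte markers, whose sums overlapped between genotypes, had a median log2 fold change of -0.29. Of them, 2 (Adipoq and Slc2a4) were wholly lower in knockout libraries, while Cidec (0.47) and Lpl (0.05) had values above 0. Of the 21 duct epithelium markers 12 were tested, and the filter on low counts removed the rest, Elf3 among them. None of the tested markers passed with edgeR, and the part of these markers in the result was not tested.

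**Figure D1:**
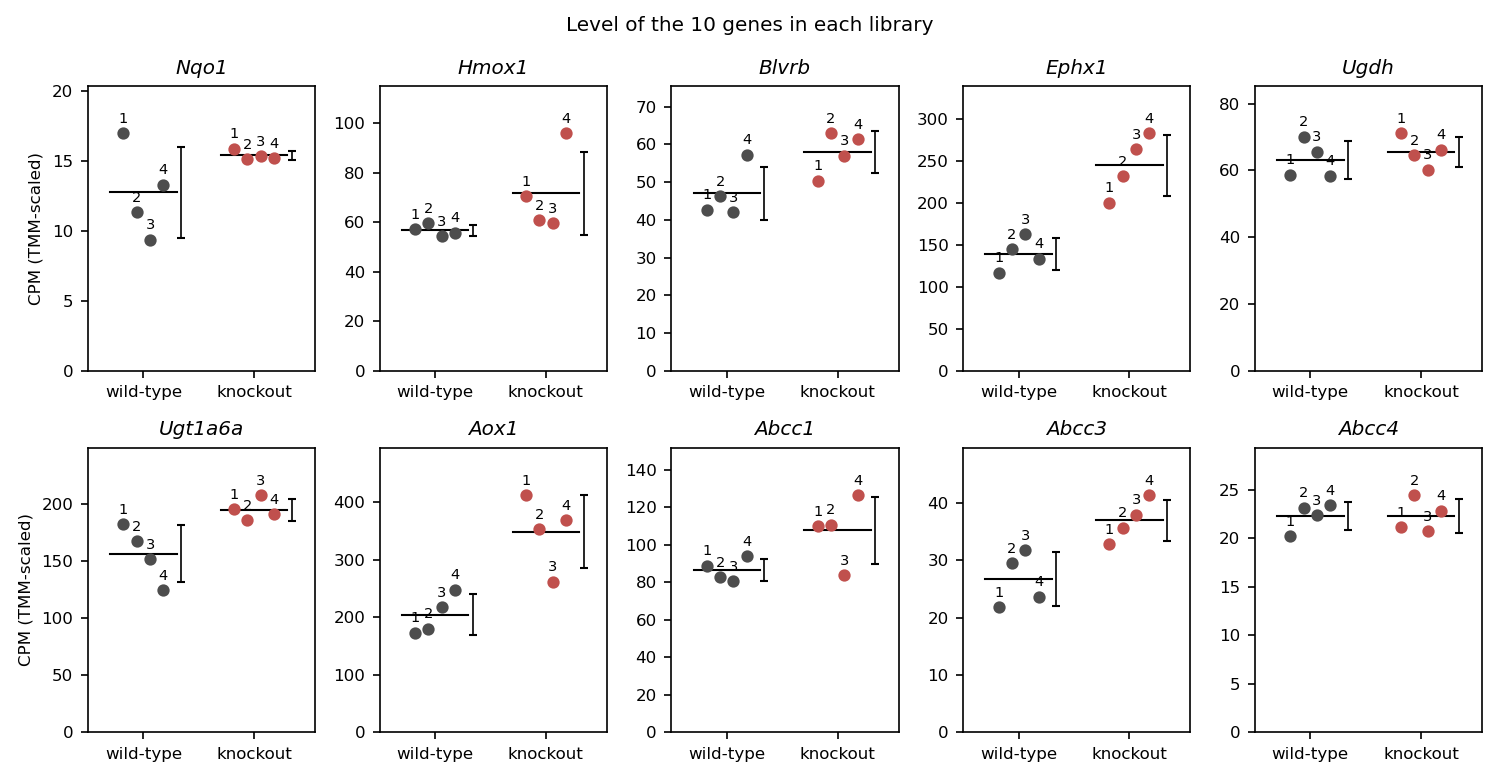
Level of each of the 10 genes in CPM (vertical axes, from 0) in the 4 wild-type (grey) and 4 knockout (red) libraries, numbered by replicate; the line is the mean and the bar beside it 1 SD. Knockout libraries lie above all wild-type libraries for Ephx1, Aox1, Abcc3 and Ugt1a6a, and for Hmox1 knockout library 4 is the highest.

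The per-length scale of the deposited table (FPKM) allows the genes to be compared with each other. In wild-type fat Ephx1 was the most abundant of the 10 at 68.8 ± 6.25 FPKM (SD, n = 4), and its libraries lay above those of every other gene here. Blvrb (33.1 ± 5.05 FPKM), the Ugt1a6a row (26.6 ± 5.17), Hmox1 (26.1 ± 1.997) and Aox1 (23.3 ± 3.48) came next, and neighbours in this order overlapped. The Ugt1a6a row holds mostly reads shared with other UGT1A genes. The lowest row of that locus amounted to 82.1 to 85.2% of its count, so its place here is not that of Ugt1a6a alone. Ugdh (9.22 ± 0.744 FPKM), Nqo1 (8.22 ± 2.498) and Abcc1 (6.96 ± 0.717) followed, again with overlapping libraries. The other two pumps were the scarcest, Abcc3 at 4.64 ± 0.646 FPKM and Abcc4 at 3.86 ± 0.189 FPKM, and their ranges did not overlap. In knockout fat Aox1 reached 40.1 ± 6.58 FPKM, beside 41.1 ± 3.76 FPKM for Blvrb, while Ephx1 reached 123 ± 17.8 FPKM.

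Ephx1 encodes microsomal epoxide hydrolase, which opens reactive epoxides to diols. Its wild-type libraries 1 to 4 held 117, 145, 163 and 134 CPM and its knockout libraries held 201, 232, 265 and 283 CPM. The lowest knockout library lay above the highest wild-type library. The mean went from 140 ± 19.1 to 245 ± 36.4 CPM (SD, n = 4), 1.76-fold, with a log2 fold change of 0.81 (SE 0.14, edgeR adjusted p = 0.0496). The gene (ENSMUSG00000038776) lies on chromosome 1, minus strand, from 180976155 to 181020904 in mm10, and no other gene of the table overlaps it. The size was steady and the call was not: over 18 alternatives the log2 fold change ran from 0.74 to 0.90, and edgeR's or another tool's adjusted p from 3.38e-06 to 0.230. The call was lost without wild-type library 1 (adjusted p = 0.0925), 2 (0.155), 3 (0.0672) or 4 (0.151) and without knockout library 2 (0.134), 3 (0.118) or 4 (0.067), but not without knockout library 1. Without both knockout libraries 2 and 3 the log2 fold change was 0.80 (edgeR adjusted p = 0.230).

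Ephx2, the soluble epoxide hydrolase that acts on fatty acid epoxides, averaged 354 ± 57.1 (wild-type) and 439 ± 38.2 CPM (knockout; SD, n = 4; log2 fold change 0.31, edgeR adjusted p = 0.285). Ephx2 is one of 7 paralogues and partner enzymes of the quinone, bilirubin and epoxide genes, of which 0 passed with edgeR, DESeq2 or limma-voom and 1 reached an unadjusted p under 0.05; their median log2 fold change was 0.04. The others named by the rule were Nqo2, a quinone reductase that uses other cofactors than Nqo1, at -0.30 (edgeR adjusted p = 0.428), and Ephx4 at 0.72 (edgeR adjusted p = 0.658), a gene near 1 CPM. Hmox2, the constitutive heme oxygenase, and Blvra, the other biliverdin reductase, had log2 fold changes of 0.03 and 0.04.

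Aox1, a molybdenum and flavin enzyme that oxidises aldehydes and nitrogen-containing rings, had nearly as large a log2 fold change as Ephx1. Wild-type libraries held 173, 180, 217 and 248 CPM and knockout libraries held 412, 353, 262 and 369 CPM. The genotypes did not overlap, but knockout library 3 lay close to wild-type library 4. The gene averaged 205 ± 35.1 (wild-type) and 349 ± 63.3 CPM (knockout; SD, n = 4), a ratio of 1.71. The log2 fold change of 0.77 (SE 0.16, 95% interval 0.40 to 1.14) did not pass with edgeR (adjusted p = 0.0926) and passed with DESeq2 (adjusted p = 5.73e-04). It was 0.94 without knockout libraries 2 and 3 (edgeR adjusted p = 0.129). Aox1 (ENSMUSG00000063558) lies on chromosome 1, plus strand, from 58029931 to 58106413 in mm10.

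Aox3, a close copy that lies next to Aox1 on chromosome 1, had lower values in knockout libraries and did not pass the test. It had 14.4, 16.6, 13.3 and 13.2 CPM in wild-type and 9.003, 7.63, 13.5 and 5.77 CPM in knockout libraries. The knockout libraries overlapped the wild-type range in library 3 alone, the same library in which Aox1 was lowest among the knockouts. Its log2 fold change was -0.68 (SE 0.24, edgeR adjusted p = 0.212). The ratio of Aox1 to Aox3 counts was 10.9 to 18.8 in wild-type libraries and 45.8, 46.2, 19.4 and 63.9 in knockout libraries 1 to 4; this ratio was formed after the values were seen and was not tested. The copies are similar in sequence, so single reads may be assigned to either with error.

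Of 10 tested molybdenum enzymes and cofactor genes besides Aox1, 0 passed with edgeR, DESeq2 or limma-voom, 2 reached an unadjusted p under 0.05, and the median log2 fold change was 0.02. Marc2, a mitochondrial amidoxime reductase, averaged 196 ± 20.7 (wild-type) and 234 ± 5.29 CPM (knockout; SD, n = 4; log2 fold change 0.26, edgeR adjusted p = 0.206), with no overlap. Suox, sulfite oxidase, had a log2 fold change of 0.30 (edgeR adjusted p = 0.481), and Xdh, xanthine dehydrogenase, one of -0.09 (edgeR adjusted p = 0.758; Xdh was named after its value was seen).

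**Figure D2:**
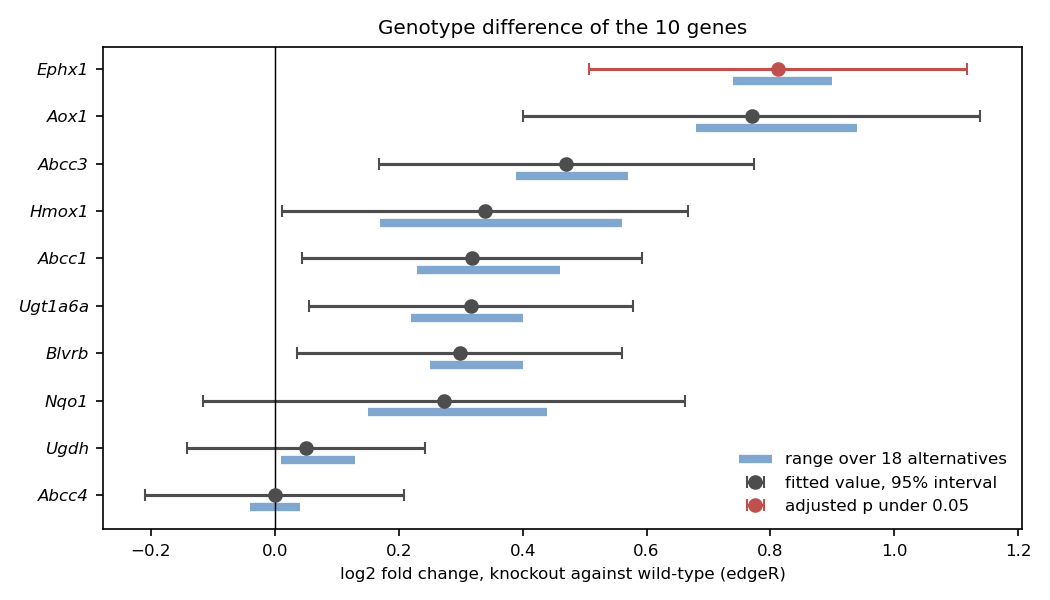
Log2 fold change of each gene in knockout against wild-type fat (horizontal axis) with its 95% interval from edgeR; the blue bar under each point is the range over 18 alternative settings. Ephx1, in red, passed an adjusted p of 0.05; the intervals of Nqo1, Ugdh and Abcc4 span 0.

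Nqo1, which reduces quinones to hydroquinones and is a widely used reporter of NRF2, did not pass. Its wild-type libraries held 16.9, 11.3, 9.35 and 13.3 CPM and its knockout libraries held 15.9, 15.1, 15.3 and 15.2 CPM. Wild-type library 1 was the highest of all 8, and the other wild-type libraries lay below every knockout library. The gene averaged 12.7 ± 3.24 (wild-type) and 15.4 ± 0.333 CPM (knockout; SD, n = 4; log2 fold change 0.27, 95% interval -0.12 to 0.66, edgeR adjusted p = 0.480). Without wild-type library 1 the log2 fold change was 0.44 (edgeR adjusted p = 0.202) and without wild-type library 3 it was 0.15 (edgeR adjusted p = 0.649), so the value moved by over 1.5 times either way with 1 library.

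Hmox1, the inducible heme oxygenase that opens heme to biliverdin, carbon monoxide and iron, was uneven among knockout mice. Wild-type libraries held 57.2, 59.5, 54.5 and 55.7 CPM and knockout libraries held 70.5, 60.8, 59.5 and 95.8 CPM. Knockout library 4 stood highest, and knockout library 3 was at the level of wild-type library 2. The log2 fold change was 0.34 (SE 0.15, 95% interval 0.01 to 0.67, edgeR adjusted p = 0.294), with 0.17 without knockout library 4 and 0.56 without knockout libraries 2 and 3 (edgeR adjusted p = 0.232). Macrophages, which break down heme, make much Hmox1: 12 macrophage markers summed to 1653 to 2308 CPM in wild-type and 2320, 1786, 2466 and 2220 CPM in knockout libraries 1 to 4, which overlap, and the part of these cells in the Hmox1 level was not tested.

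Blvrb reduces flavins and a biliverdin isomer. Its libraries held 42.7, 46.3, 42.1 and 57.3 CPM in wild-type and 50.4, 62.9, 57.1 and 61.3 CPM in knockout fat. Wild-type library 4 lay within the knockout range. The log2 fold change was 0.30 (SE 0.12, 95% interval 0.04 to 0.56, edgeR adjusted p = 0.254). Blvrb is abundant in red blood cells, whose 6 marker genes summed to 355 to 521 CPM in wild-type and 384 to 511 CPM in knockout libraries.

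Genes of heme synthesis and transport did not pass in either direction: 0 of 13 with edgeR, 3 at an unadjusted p under 0.05, 1 with DESeq2 (Alad) and 0 with limma-voom, with a median log2 fold change of 0.08. Alad, the enzyme that makes porphobilinogen, averaged 59.8 ± 9.70 (wild-type) and 85.4 ± 15.0 CPM (knockout; SD, n = 4; log2 fold change 0.51, edgeR adjusted p = 0.164, DESeq2 adjusted p = 0.0376). The value for Alad was 0.31 without knockout libraries 2 and 3. Slc48a1, a heme transporter of lysosomes, had a log2 fold change of 0.47 (edgeR adjusted p = 0.265) and Flvcr2, named Mfsd7c in the table, one of -0.59 from 4.17 CPM in wild-type fat (edgeR adjusted p = 0.247).

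Glucuronidation was represented by Ugdh, which makes the donor UDP-glucuronate, and by Ugt1a6a, a transferase for small planar phenols. For Ugdh no difference beyond the spread of the libraries was detected, with 58.7, 70.1, 65.6 and 58.3 CPM in wild-type and 71.0, 64.5, 60.2 and 66.2 CPM in knockout fat. Its log2 fold change was 0.05 (SE 0.09, 95% interval -0.14 to 0.24, edgeR adjusted p = 0.812). The 6 other genes of UDP-glucuronate supply and use did not pass with edgeR, DESeq2 or limma-voom (0, with 0 at an unadjusted p under 0.05) and had a median of -0.07. Among them Ugp2, which makes UDP-glucose, had -0.13 (edgeR adjusted p = 0.647), Uxs1, which turns UDP-glucuronate into UDP-xylose, 0.09 (0.750), and Pgm2, a phosphoglucomutase, -0.08 (0.796).

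The Ugt1a6a row held 182, 168, 152 and 125 CPM in wild-type and 196, 186, 208 and 191 CPM in knockout libraries. The genotypes did not overlap on this scale, although wild-type library 1 was within 4 CPM of knockout library 2, and on the deposited FPKM scale they overlapped (wild-type library 1 at 32.9, knockout library 4 at 31.3). The log2 fold change was 0.32 (SE 0.12, 95% interval 0.06 to 0.58, edgeR adjusted p = 0.226). This row does not measure Ugt1a6a alone. The transferases of the UGT1A locus differ in their first exon and share the others, and 9 rows of the table cover this locus on the plus strand of chromosome 1.

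The counts repeat between rows, so most reads of the locus entered each of the 9. In 6 of the 9 rows, Ugt1a1, Ugt1a2, Ugt1a5, Ugt1a8, Ugt1a9 and Ugt1a10, the counts lay within 20 reads of the lowest row in every library. In wild-type library 1, for example, Ugt1a2 and Ugt1a10 both held 1807 reads, Ugt1a9 held 1811 and Ugt1a6a held 2121. The lowest row amounted to 82.1 to 85.2% of the Ugt1a6a count. Subtracting it left 314, 461, 322 and 341 reads in wild-type and 381, 435, 476 and 642 in knockout libraries. Divided by the unscaled library total these came to 25.6 ± 2.84 CPM in wild-type against 31.3 ± 2.20 CPM in knockout fat (SD, n = 4), a ratio of 1.23, close to the 1.25 of the whole row. The row runs from 88103252 to 88220002 and starts at the same base as Ugt1a6b, so these remaining reads cannot be given to Ugt1a6a alone either. Adding the UGT1A rows would count the same reads up to 9 times.

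**Figure D3:**
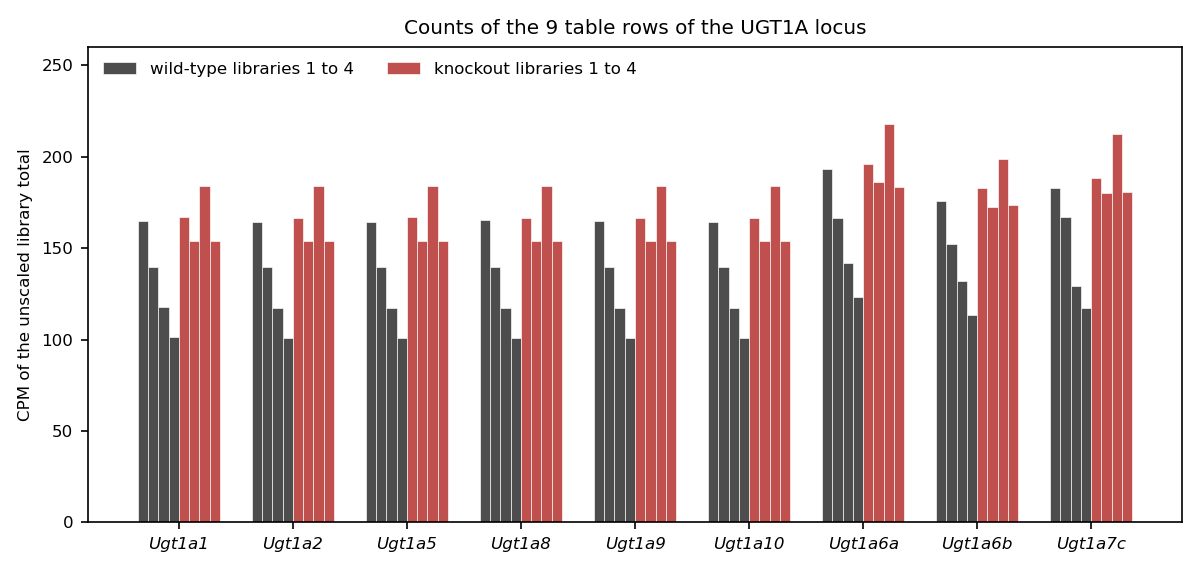
CPM of the unscaled library total (vertical axis, from 0) for each of the 9 table rows of the UGT1A locus in the 4 wild-type (grey) and 4 knockout (red) libraries, in replicate order. The first 6 rows repeat 1 profile, while Ugt1a6a, Ugt1a6b and Ugt1a7c stand higher.

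Of the 19 other transferase genes listed, 9 were tested and 8 of these were UGT1A rows that repeat the same reads, so their count is not a count of genes; 0 passed with edgeR, DESeq2 or limma-voom, and 8 had an unadjusted p under 0.05. Ugt1a6b had a log2 fold change of 0.33 (edgeR adjusted p = 0.193), Ugt1a7c of 0.34 (0.215) and Ugt1a5 of 0.32 (0.243). The ninth, Ugt3a2, averaged 1.84 ± 1.53 (wild-type) and 0.998 ± 0.457 CPM (knockout; SD, n = 4).

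The export pumps of the ABCC family, which carry glutathione, glucuronate and sulfate conjugates across the plasma membrane, did not pass the test. Abcc3, which prefers glucuronides, held 21.9, 29.6, 31.8 and 23.6 CPM in wild-type and 32.9, 35.7, 38.0 and 41.4 CPM in knockout libraries, without overlap. Its log2 fold change was 0.47 (SE 0.13, 95% interval 0.17 to 0.77, edgeR adjusted p = 0.150, DESeq2 adjusted p = 0.0386), and 0.49 without knockout libraries 2 and 3. Abcc1, a broad pump for glutathione conjugates, held 88.9, 82.8, 80.6 and 93.8 CPM in wild-type and 110, 111, 83.8 and 127 CPM in knockout libraries. Only knockout library 3 fell inside the wild-type range. Its log2 fold change was 0.32 (SE 0.12, edgeR adjusted p = 0.245), and 0.46 without knockout libraries 2 and 3 (edgeR adjusted p = 0.241).

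Abcc4, which exports cyclic nucleotides, prostaglandins and conjugates, showed no difference that these libraries could detect. It held 20.2, 23.2, 22.4 and 23.4 CPM in wild-type and 21.2, 24.5, 20.7 and 22.8 CPM in knockout libraries, 22.3 ± 1.44 and 22.3 ± 1.71 CPM on average (SD, n = 4). The 95% interval of its log2 fold change ran from -0.21 to 0.21 (edgeR adjusted p = 0.998). The intervals of Abcc3 and Abcc4 overlap, and the difference between these genes was not tested.

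Among 4 other tested ABCC genes 0 passed with edgeR (2 at an unadjusted p under 0.05) or limma-voom, and DESeq2 called 1, Cftr, with a median log2 fold change of -0.09 over the 4. Cftr, the epithelial chloride channel of this family, held 7.93 and 8.31 CPM in knockout libraries 2 and 3, 0.308 and 0.913 CPM in knockout libraries 1 and 4 and at most 0.786 CPM in wild-type libraries, so it was high in the libraries where duct epithelium markers were high. Abcc5, a pump for cyclic nucleotides, had a log2 fold change of -0.21 (edgeR adjusted p = 0.286) and Abcc10 one of -0.12 (edgeR adjusted p = 0.606).

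The pumps outside the ABCC family that export foreign compounds had negative values. All 4 tested (Abcb1a, Abcb1b, Abcb4 and Abcg2) had log2 fold changes under 0, with a median of -0.34; 0 passed with edgeR or limma-voom, 2 had an unadjusted p under 0.05, and DESeq2 called 2 as lower. Abcb1a, which encodes a P-glycoprotein, averaged 41.1 ± 7.83 (wild-type) and 28.7 ± 3.15 CPM (knockout; SD, n = 4; log2 fold change -0.52, edgeR adjusted p = 0.145), with no overlap. Abcg2 had 61.7 ± 5.06 and 45.5 ± 7.60 CPM (SD, n = 4; log2 fold change -0.44, edgeR adjusted p = 0.145). Both genes are known from endothelium, and the endothelial marker sum was lower in knockout libraries, as given above. Whether this had a part in the pumps' values was not tested.

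Other conjugating enzymes (sulfotransferases, methyltransferases and acetyltransferases) did not pass. Of 17 listed 11 were tested: 0 passed with edgeR or limma-voom, 2 had an unadjusted p under 0.05 and DESeq2 called 1, with a median log2 fold change of -0.13. Sult1c2 and Sult1d1, which the filter removed, were high in knockout libraries 2 and 3, as duct epithelium markers were. Sult1c2 held 8.89 and 9.47 CPM there and at most 0.231 CPM elsewhere, Sult1d1 4.89 and 6.61 CPM and at most 0.385 CPM. The other untested genes of this list held at most 3.17 CPM in any library. Sult1e1, the estrogen sulfotransferase, held 91.1, 44.9, 48.1 and 91.1 CPM in wild-type and 27.1, 35.2, 43.3 and 32.3 CPM in knockout libraries, without overlap (log2 fold change -0.99, SE 0.26, edgeR adjusted p = 0.138, DESeq2 adjusted p = 0.00877). Papss2, which makes the sulfate donor, had -0.31 (edgeR adjusted p = 0.261) and Hnmt, histamine methyltransferase, -0.30 (edgeR adjusted p = 0.420).

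**Figure D4:**
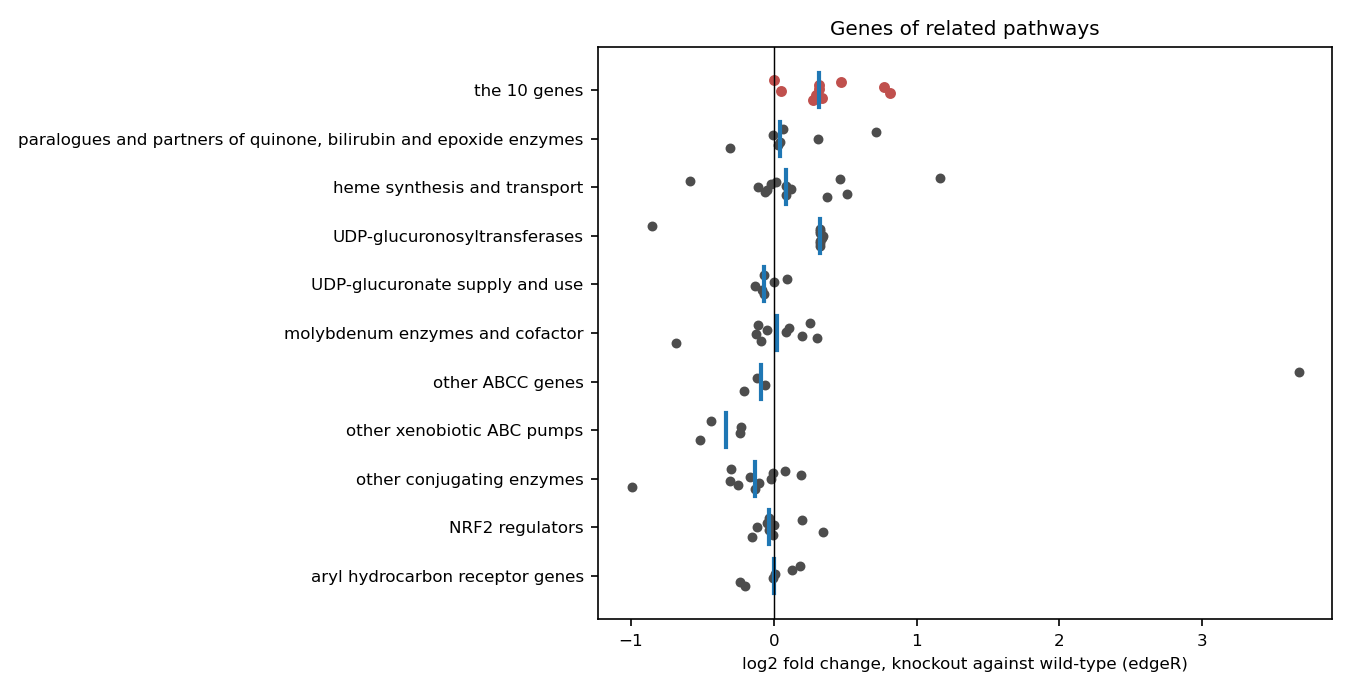
Log2 fold change in knockout against wild-type fat (horizontal axis) of the 10 genes (red) and of every tested gene of 10 related lists (grey), 1 point a gene, with the median of each list as a blue bar. The UDP-glucuronosyltransferase points at about 0.32 are the UGT1A rows that share reads, and the point at 3.67 is Cftr.

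Regulators of NRF2 were also measured. Sqstm1, which encodes p62, held 342 to 437 CPM in wild-type and 491 to 546 CPM in knockout libraries (log2 fold change 0.34, edgeR adjusted p = 0.159, DESeq2 adjusted p = 0.0118), whereas Nfe2l2, the NRF2 gene itself, had a log2 fold change of -0.15 (edgeR adjusted p = 0.365) and Keap1 one of -0.01. Rbx1 held 34.1 to 37.2 CPM in wild-type and 31.3 to 33.9 CPM in knockout libraries, without overlap (log2 fold change -0.12, edgeR adjusted p = 0.429). Of 9 regulators 0 passed with edgeR or limma-voom, 1 had an unadjusted p under 0.05, and DESeq2 called 1. NRF2 is controlled mainly as a protein, which was not measured here.

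Genes of the aryl hydrocarbon receptor, which shares Nqo1 and the Ugt1a6 genes with NRF2 as targets, did not pass with edgeR or limma-voom (0 of 6, 1 at an unadjusted p under 0.05, 1 with DESeq2), with a median log2 fold change of 0.00. Its partner Arnt held 113 to 123 CPM in wild-type and 96.6 to 106 CPM in knockout libraries (log2 fold change -0.24, edgeR adjusted p = 0.141, DESeq2 adjusted p = 0.0135). Cyp1b1, a target, had 0.18 (edgeR adjusted p = 0.638), and Ahr itself -0.20 (edgeR adjusted p = 0.745).

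The libraries that held the extremes differed from gene to gene. Knockout library 4 was the highest of all 8 for 4 genes (Hmox1, Ephx1, Abcc1 and Abcc3), knockout libraries 1 and 2 for 2 each, knockout library 3 for Ugt1a6a and wild-type library 1 for Nqo1. The lowest library was a wild-type one for all 10 genes, wild-type library 1 or 3 for 4 each and wild-type library 4 for Ugdh and Ugt1a6a. The lowest wild-type and the highest knockout values thus did not come from 1 pair of mice. How many of all genes have a wild-type library as their lowest was not computed, so the count of 10 has no share beside it. For Abcc4 the lowest library, wild-type library 1 at 20.2 CPM, lay close to knockout library 3 at 20.7 CPM.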

How the data were processed

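Polyadenylated RNA was sequenced as single reads of 50 cycles from strand-marking libraries, per the labels' protocols. Novoalign 2.8.1, Picard and mm10 are named in the submitters' processing notes. The program that counted reads, its use of strand and its annotation are not stated there or in the labels. The authors deposited, per the file headers, a raw read count and an FPKM value per gene and library; all 158499 FPKM values above 0 follow from the count, the exonic length and the library total within 0.1%. Starts in the table count from 0 and were raised by 1. Genes were kept by filterByExpr of edgeR 4.0.16 (minimum count 10), scaled by TMM and tested with glmQLFTest in R 4.3.3 without covariates, with Benjamini-Hochberg adjustment over 14800 genes, after a check on simulated counts. Alternatives included DESeq2 1.42.0 and limma-voom (limma 3.58.1). The lowest chi-square per gene between libraries of a genotype was 20.8, so none was counted as a repeat. The 10 genes, the lists and markers were chosen with earlier results of these data known. Besides the 10 genes and Atg3, the naming rule took up to 3 genes with the lowest adjusted p per list; others named were chosen after their values were seen. The labels name 4 mice per genotype. The p-values set the difference between genotypes against a spread between mice that the tools estimate partly from other genes.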

Additional observations from a re-analysis of the deposited data

Results flagged for a closer look

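Dixon's ratio, the gap of the highest or lowest library to its nearest neighbour over the range of the 4, was computed for 42 groups (the 10 genes, Atg3 and 10 marker sums in each genotype); it passed its 95% critical value in 4, and chance alone flags about 1 in 20. None of these was one of the 10 genes or Atg3. The endothelial marker sum of knockout library 4, 1561 CPM, stood above 1378 to 1400 CPM in the other knockout libraries. The liver marker sum of wild-type library 3, 26.4 CPM, stood above 8.69 to 10.7 CPM in the other wild-type libraries. For the prostate and seminal vesicle genes, wild-type library 3 at 3.36 CPM and knockout library 1 at 74.4 CPM stood above the rest of their groups.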

How the results depend on the processing

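Over 18 alternatives (3 scalings, 2 filters, 2 other tools, robust edgeR, the replicate block, each library left out in turn and knockout libraries 2 and 3 left out together), 9 of the 10 genes kept their direction in every one. The exception was Abcc4, whose log2 fold change of about 0 lay between -0.04 and 0.04 and was 0.00, 0.01, 0.02 or 0.04 in the 10 that turned its sign, with unadjusted p from 0.698 up. The 1 member call, Ephx1, became 0 calls with RLE scaling (edgeR adjusted p = 0.0508), no filter (0.0547), limma-voom (0.0606), robust edgeR (0.0504), the replicate block (0.0903) and without knockout libraries 2 and 3 (0.230), and 3 calls with DESeq2; in these settings 5 to 7 of the 10 genes had an unadjusted p under 0.05 (all genes, 8.52 to 16.8%), and without 1 library 3 to 6 did (all genes, 10.5 to 16.8%). Without 1 library the member calls were 0 to 1 and the calls over all genes 0 to 290, the 0 being without knockout library 2 (edgeR, 1573 genes at an unadjusted p under 0.05). Calls over all genes were 60 in the fit reported, 813 with DESeq2, 14 with the replicate block and 3 without knockout libraries 2 and 3. Whether the replicate numbers pair the mice is not known. Same-numbered libraries deviated from their group means with correlations of -0.21 to 0.16, and 1 of 4 wild-type libraries correlated best with its own number. Correlations over 4 pairs cannot decide whether mice were matched, so the fit reported, without the block, takes the mice as unpaired. The count of genes without overlap, 4 of 10, was 4 to 6 without 1 library (all genes, 5.01 to 7.40%), 6 without knockout libraries 2 and 3 (all genes, 8.95%) and 4 by library size only (all genes, 4.92%), where Hmox1 took the place of Ugt1a6a; these counts were added after the data were seen. Scaling moved the median of all genes by at most 0.016 on the log2 scale.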
